A study of Mus musculus with 9 samples.

Results

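The BCL2 family genes examined here were 10 genes read by symbol from the expression values of A/A pDCs, out of 52550 genes listed. They were 3 anti-apoptotic genes (*Bcl2*, *Bcl2l1* and *Mcl1*), 2 effectors (*Bax* and *Bak1*) and 5 BH3-only genes (*Bid*, *Bad*, *Bcl2l11*, *Bbc3* and *Pmaip1*). All 10 had reads. pDCs are dendritic cells specialised in the secretion of type I IFN once TLR7 or TLR9 meets nucleic acid. The RNA-Seq experiment had 9 samples, 3 for each genotype. G/G mice were WT, and G/A and A/A mice carried 1 or 2 knocked-in *Ncf1* alleles with p.R90H, in the germline and therefore in every cell type. The labels give the strain as C57BL/6, and the study's methods state female mice, 10 to 12 weeks old. Splenic pDCs sorted as CD11c-int SiglecH+ PDCA1+ received the TLR7/-8 ligand R848 at 10 μg/mL for 12 hours in culture, in every group. Only A/A replicate 1 was analysed here, and 8 libraries were not. No genotypes could be compared, no value has a replicate error, and no unstimulated level stands beside the values.

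BCL2 family proteins decide whether the outer mitochondrial membrane stays intact. The effectors BAX and BAK open it, which releases cytochrome c and starts the caspase cascade. The anti-apoptotic proteins hold the effectors and the BH3-only proteins in check. The BH3-only proteins, which sense stress, bind the anti-apoptotic proteins through a short helix, the BH3 domain, and some also activate the effectors directly. NOXA (*Pmaip1*) binds preferentially to MCL1 and A1, BAD binds to BCL-2, BCL-XL and BCL-W, and BIM (*Bcl2l11*) and PUMA (*Bbc3*) bind all of them. BCL-2 is known as a survival factor of pDCs.

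The stretch coding for the core of the BH3 domain is shown because it is the element the members share, whatever their role. It was found as a leucine, any 3 residues, then glycine, alanine or serine, then aspartate in the longest coding sequence of each gene (GENCODE M21, GRCm38). All 10 members held this pattern, 9 of them at a single place, but so did 34.0% of the 21591 coding sequences searched, so the pattern alone does not define the family. Each stretch printed has 36 bases, and the capitals mark the codons of the leucine and of the last pair of residues.
Bcl2: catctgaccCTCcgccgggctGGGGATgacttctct
Bcl2l1: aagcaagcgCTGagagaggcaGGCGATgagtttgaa
Mcl1: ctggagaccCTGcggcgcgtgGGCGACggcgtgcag
Bax: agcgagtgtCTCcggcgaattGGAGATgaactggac
Bak1: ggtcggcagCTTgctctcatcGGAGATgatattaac
Bid: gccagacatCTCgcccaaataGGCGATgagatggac
Bad: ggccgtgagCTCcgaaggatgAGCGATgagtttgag
Bcl2l11: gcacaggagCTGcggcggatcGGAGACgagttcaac
Bbc3: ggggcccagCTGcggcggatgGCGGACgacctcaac

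These stretches lie at chr1:106712575-106712610 (minus strand, *Bcl2*), chr2:152829697-152829732 (minus, *Bcl2l1*), chr3:95659427-95659462 (plus, *Mcl1*), chr7:45465997-45466032 (minus, *Bax*) and chr17:27022531-27022566 (minus, *Bak1*). Those of the BH3-only genes lie at chr6:120897289-120897324 (minus, *Bid*), chr19:6950783-6950818 (plus, *Bad*), chr2:128147141-128147176 (plus, *Bcl2l11*) and chr7:16313764-16313799 (plus, *Bbc3*). Each lies within 1 coding exon. *Pmaip1* had 2 matches, with leucines at residues 27 and 78 of 103. Over the 36 pairs of printed stretches, between 13 and 25 of the 36 bases were identical, with a median of 18.5. These counts include the codons of the pattern by which the stretches were found and aligned. Part of the identity was therefore set by the search. Over the full transcripts, 1 of the 45 pairs of members shared an identical window of 50 bases in either orientation (*Bcl2* and *Bcl2l11*, 1 window).

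The library held 31408298 reads, recovered from the deposited values as whole multiples of a step of 1.19. Levels are given as CPM, the reads of a gene per 1000000 reads, with Wilson 95% confidence intervals. Genes were compared with each other by RPKM, the CPM divided by the length of the gene's merged exons in kilobases. Without molecular identifiers, reads copied by PCR do not count separate molecules, and the intervals therefore express counting error alone. A floor of 3 reads (0.0955 CPM) was used, which a gene listed at 0 cannot be said to fall below. The knocked-in gene, *Ncf1*, had 1079 CPM, and the values do not separate the alleles. The male-specific gene *Ddx3y* had 102 CPM and *Xist* was listed at 0, against the female mice of the methods, and every value below comes from this library. All 11 pDC markers had reads, with *Siglech* at 374 CPM and *Bst2* at 1657.

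*Pmaip1* (ENSMUSG00000024521.7, chromosome 18, 66458604 to 66465550, plus strand), which encodes NOXA, was the highest of the 10 members. It gave 35565 reads, or 1132 CPM (95% CI, 1121 to 1144), and its RPKM of 414 ranked 121 among the 17632 genes with reads and an exon length, at percentile 99.3. *Mcl1* (ENSMUSG00000038612.16, chromosome 3, 95658788 to 95663176, plus strand), the anti-apoptotic partner that NOXA prefers, came next. It gave 16310 reads, or 519 CPM (95% CI, 511 to 527), and an RPKM of 152. The RPKM of *Pmaip1* was 2.73 times that of *Mcl1* (exact 95% CI, 2.68 to 2.78), and 7.01 times with reads set against coding length alone. Of the summed RPKM of the 10 members, *Pmaip1* held 54.7%, *Mcl1* 20.1% and *Bax* 15.7%.

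The anti-apoptotic members ranged from high to low. *Bcl2* (ENSMUSG00000057329.7, chromosome 1, 106538178 to 106714274, minus strand), which encodes the founding survival protein of the family, gave 185 reads, or 5.89 CPM (95% CI, 5.10 to 6.80). Its RPKM of 0.643 was the lowest of the 10 members and stood at percentile 33.1, below the median gene. *Bcl2l1* (ENSMUSG00000007659.18, chromosome 2, 152780668 to 152831728, minus strand), the gene of BCL-XL, gave 957 reads, or 30.5 CPM (95% CI, 28.6 to 32.5), and an RPKM of 6.64. The RPKM of *Mcl1* was thus 22.9 times that of *Bcl2l1* (exact 95% CI, 21.4 to 24.4) and 236 times that of *Bcl2* (exact 95% CI, 204 to 275). The ratio to *Bcl2l1* was 12.8 with the longest coding transcript and 12.0 with the coding length. *Bcl2* has long untranslated exons, and the ratio of *Mcl1* to *Bcl2* was 185 with the longest coding transcript and 62.9 with the coding length. Values per gene do not separate isoforms, such as the long and short products of *Bcl2l1* or of *Mcl1*.

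Of the effectors, *Bax* was high and *Bak1* was low. *Bax* (ENSMUSG00000003873.11, chromosome 7, 45461697 to 45466898, minus strand) gave 5904 reads, or 188 CPM (95% CI, 183 to 193), and an RPKM of 119 at percentile 97.5. *Bak1* (ENSMUSG00000057789.13, chromosome 17, 27019810 to 27029009, minus strand) gave 156 reads, or 4.97 CPM (95% CI, 4.25 to 5.81), and an RPKM of 2.06 at percentile 51.4. The RPKM of *Bax* was 57.8 times that of *Bak1* (exact 95% CI, 49.3 to 68.2), and the ratio was 82.1 with the longest coding transcript and 41.2 with the coding length. By RPKM of merged exons *Bak1* was therefore a gene of about median level. With the longest coding transcript it was below the median gene, at 2.08 against 5.66. *Bax* was within a factor of 1.27 of *Mcl1* (exact 95% CI, 1.24 to 1.31). The order of *Bax* and *Mcl1* turned with the longest coding transcript, where the ratio of *Mcl1* to *Bax* was 0.889.

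The BH3-only members fell in a graded order. *Bbc3* (ENSMUSG00000002083.13, chromosome 7, 16308393 to 16318205, plus strand), the gene of PUMA, followed *Pmaip1* with 2231 reads, or 71.0 CPM (95% CI, 68.1 to 74.0), and an RPKM of 33.4. *Bid* (ENSMUSG00000004446.12, chromosome 6, 120891930 to 120916853, minus strand), whose product is cleaved by caspase-8 and so links death receptors to mitochondria, gave 1795 reads, or 57.2 CPM (95% CI, 54.6 to 59.9), and an RPKM of 16.1. Both stood above percentile 84 by RPKM, at 91.4 and 84.2.

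*Bad* (ENSMUSG00000024959.13, chromosome 19, 6941861 to 6951898, plus strand), whose product is held inactive by survival kinases such as AKT, gave 676 reads, or 21.5 CPM (95% CI, 20.0 to 23.2), and an RPKM of 8.41. *Bcl2l11* (ENSMUSG00000027381.16, chromosome 2, 128126038 to 128162547, plus strand), the gene of BIM, gave 1169 reads, or 37.2 CPM (95% CI, 35.1 to 39.4), and the lowest RPKM of the BH3-only members, 4.64. The RPKM of *Pmaip1* was 89.4 times that of *Bcl2l11* (exact 95% CI, 84.3 to 94.9), and the ratio was 56.2 with the longest coding transcript and 57.9 with the coding length. *Bad* and *Bcl2l11* were also close to *Bcl2l1*. The RPKM of *Bad* was 1.27 times that of *Bcl2l1* (exact 95% CI, 1.15 to 1.40), or 0.807 times with the coding length. The RPKM of *Bad* was 13.1 times that of *Bcl2* (exact 95% CI, 11.1 to 15.5), or 4.23 times with the coding length. These are RNA levels, and protein was not measured here.

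**Figure D1:**
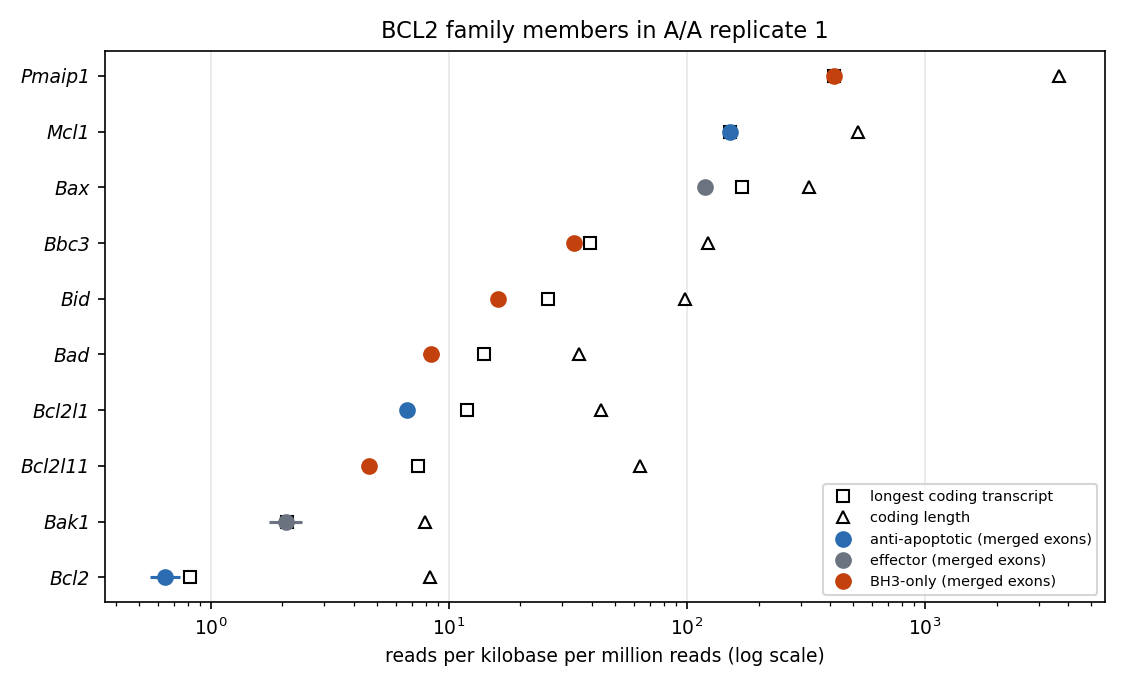
RPKM of each of the 10 members in A/A replicate 1, on a log axis. Filled points use the merged exon length, with Wilson 95% intervals, and are coloured by role; open squares use the longest coding transcript and open triangles the coding length. *Pmaip1* is at 414 and *Bcl2* at 0.643 on the merged exon scale, and *Pmaip1* is the highest under all 3 lengths.

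By RPKM the order was *Pmaip1*, *Mcl1*, *Bax*, *Bbc3*, *Bid*, *Bad*, *Bcl2l1*, *Bcl2l11*, *Bak1* and *Bcl2*. The intervals of the ratios of the 9 pairs of neighbours held 1 in 0 cases, so none of the neighbours was within counting error. Length mattered more than counting for part of the order. With coding length, 4 of the 45 pairs of members turned, namely *Bad* with *Bcl2l1*, *Bad* with *Bcl2l11*, *Bcl2l1* with *Bcl2l11* and *Bak1* with *Bcl2*. The order of *Bad*, *Bcl2l1* and *Bcl2l11*, and that of *Bak1* and *Bcl2*, therefore cannot be given from these values, while the first 5 genes, apart from *Mcl1* and *Bax*, kept their places under each length.

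The members stood high among all genes. Their median RPKM was 12.3, against 1.90 for all 17632 genes with reads and an exon length, and 9 of the 10 were above the latter, with *Bcl2* below it. With the longest coding transcript the margin was smaller, 20.1 against 5.66 for genes with a coding transcript. On that scale *Bak1* (2.08) was below the median gene as well as *Bcl2* (0.819).

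**Figure D2:**
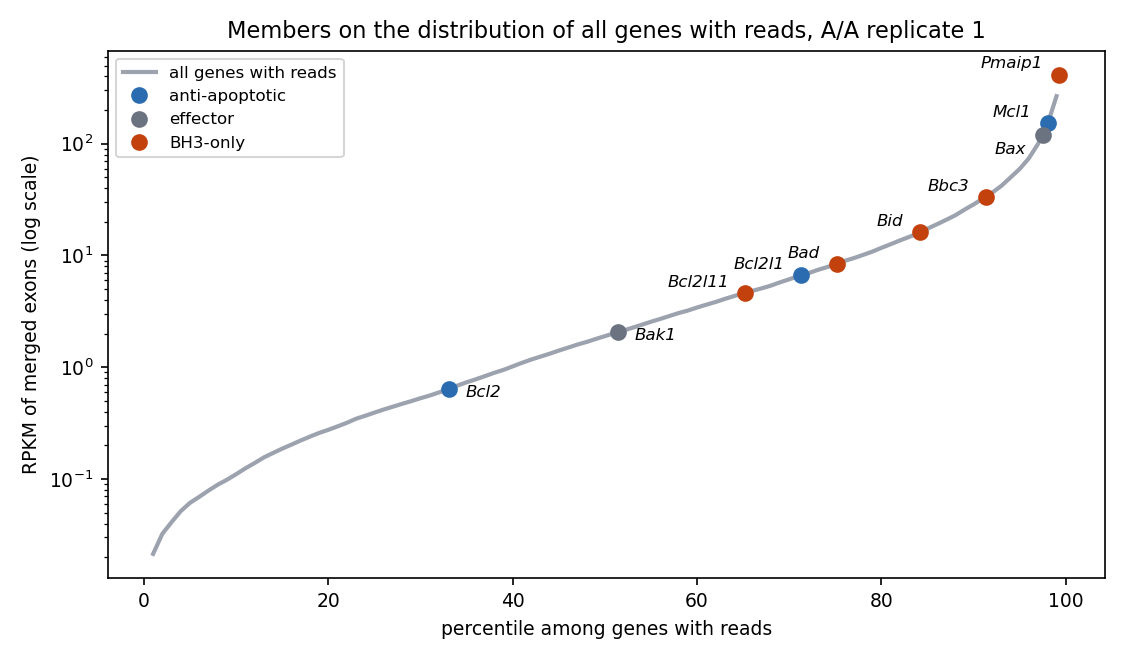
RPKM of merged exons (log axis) against the percentile among genes with reads in A/A replicate 1. The grey line is the distribution of all genes and the points are the 10 members, coloured by role; *Pmaip1*, *Mcl1* and *Bax* lie above percentile 97, and *Bcl2* lies at percentile 33.1.

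Exons of other genes overlapped those of 5 members, and no source used here states whether reads were counted by strand. Exons of *Ggnbp1*, on the opposite strand, overlapped 25.5% of the exon bases of *Bak1*, and *Ggnbp1* had 10 reads. *Bid* shared 17.7% of its exon bases with its convergent neighbour *Bcl2l13*, itself a BCL2-like gene, which had 811 reads and an RPKM of 2.84. *Gpr137* overlapped 20.5% of the exon bases of *Bad* and had 374 reads. *Bcl2* overlapped *D630008O14Rik* over 6.09% of its exon bases (36 reads), and the gene that overlapped *Bax* on the same strand, *Gm45808*, was listed at 0. Thus *Bad* and *Bid* were the members with the most reads on an overlapping gene. How reads in the shared bases were assigned, or whether they were left out of both genes, was not tested. Few reads on an overlapping gene, as for *Bak1*, therefore do not show that the member's own count was complete. No exon of another gene overlapped *Pmaip1*, *Mcl1*, *Bbc3*, *Bcl2l1* or *Bcl2l11*.

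Summed by role, the BH3-only members held 63.0% of the RPKM of the 10 members, the anti-apoptotic members 21.0% and the effectors 16.0%. This share rested on *Pmaip1*. Without it the BH3-only members held 18.2%, the anti-apoptotic members 46.4% and the effectors 35.4%.

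The balance also depended on family genes outside the 10 members, above all the A1 genes. A1 is an anti-apoptotic protein that NF-κB induces in haematopoietic cells, and the mouse has several copies of its gene on chromosome 9. *Bcl2a1b* (89199209 to 89207827) had an RPKM of 662, *Bcl2a1d* (88723285 to 88731914) 409 and *Bcl2a1a* (88956900 to 88962419) 220. Of their transcript windows of 50 bases, 79.2%, 79.5% and 69.0% occurred identically in another gene, mostly in each other, so the split of reads between the copies is uncertain. How reads that match several copies were counted is not known, so their sum is uncertain too. A further transcript that shares these windows, *Gm29094*, had 248 reads. Together the 3 genes had 33742 reads and a summed RPKM of 1291, against 414 for *Pmaip1* and 159 for the 3 anti-apoptotic members together. The order of the A1 genes and *Pmaip1* turned with the coding length, where the A1 genes summed to 2082 and *Pmaip1* had 3665. It also turned by CPM, at 1074 for the A1 genes and 1132 for *Pmaip1*. The other anti-apoptotic genes were low or not detected, with *Bcl2l2* (BCL-W) at 40 reads and an RPKM of 0.285 and *Bcl2l10* listed at 0.

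Among the other pro-death family genes little was detected. The effector *Bok* and the BH3-only genes *Hrk* and *Bik* were listed at 0, with a Wilson upper limit of 0.122 CPM. *Bmf*, a BH3-only gene whose product is tethered to the cytoskeleton, had 83 reads and an RPKM of 0.503, and the RPKM of *Bbc3* was 66.5 times that (exact 95% CI, 53.4 to 83.8), or 37.7 times with the coding length. With all these genes added to the 10 members, the anti-apoptotic genes held 70.8% of the summed RPKM, the BH3-only genes 23.3% and the effectors 5.92%. On this scale the anti-apoptotic genes thus had the largest sum once the A1 genes were counted. With the coding length the BH3-only genes kept the largest sum, at 57.1% against 38.1% for the anti-apoptotic genes.

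**Figure D3:**
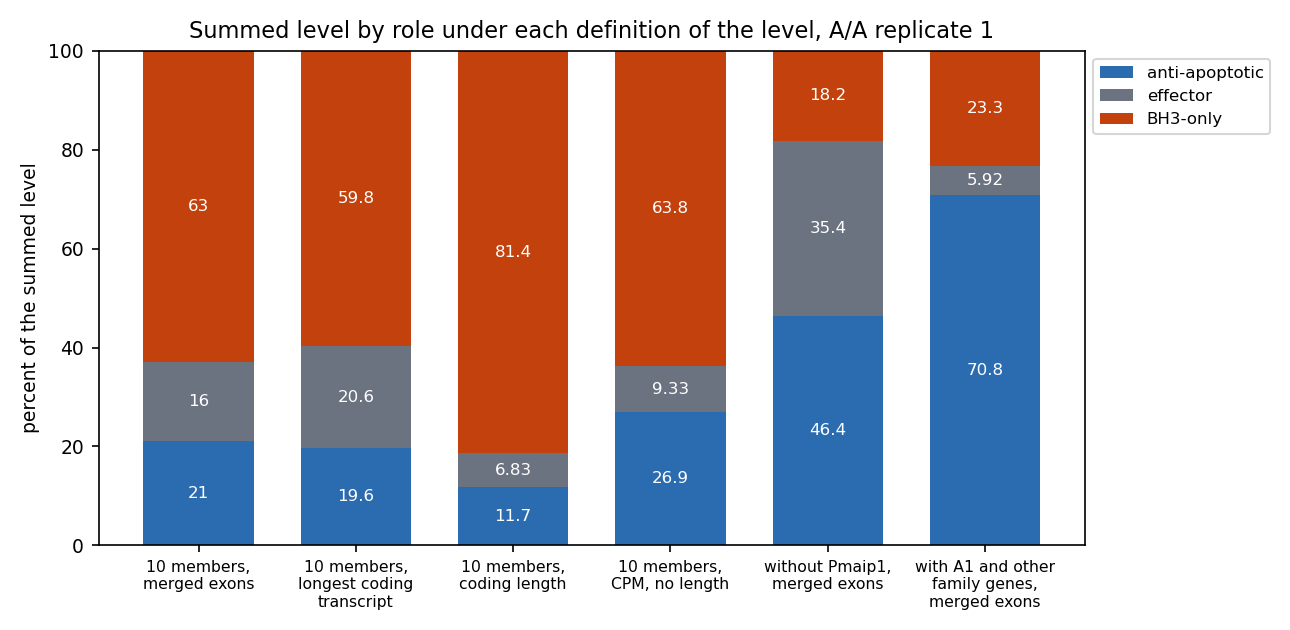
Percent of the summed level held by the anti-apoptotic, effector and BH3-only genes in A/A replicate 1, under 6 definitions. For the 10 members the BH3-only share is 63.0% with merged exons; it is 18.2% without *Pmaip1* and 23.3% once the A1 genes and the other family genes are added.

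Genes that act on the members or downstream of them were taken from lists. Of 10 genes whose products regulate the members, all had reads, with a median RPKM of 5.51. *Ddit3*, which encodes the stress factor CHOP, had 108, *Dynll1*, the dynein light chain that binds BIM, 44.1, and *Trp53* (p53) 31.6. *Mapk8* (JNK1) was the lowest, at 0.829. *Pmaip1*, *Bbc3* and *Bax* are known targets of p53. Of 6 other p53 targets, 5 were above the median gene, and their median RPKM was 33.2. *Cdkn1a*, the cell-cycle inhibitor p21, had 370, *Sesn2* 44.5 and *Ccng1* 36.0, whereas *Zmat3* had 0.0863 (31 reads). *Cdkn1a* and *Pmaip1* were close, with a ratio of *Pmaip1* to *Cdkn1a* of 1.12 (exact 95% CI, 1.10 to 1.14) that turned to 0.657 with the longest coding transcript. High levels of these genes do not show that p53 was active.

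A further list held genes of the apoptosome, caspases and other mitochondrial proteins. All 14 genes of the apoptosome and caspase list had reads and were above the median gene by RPKM of merged exons, with a median of 7.59. *Endog*, a mitochondrial nuclease, was below the median gene with the longest coding transcript (4.97 against 5.66) and by CPM (percentile 47.9). *Cycs* (cytochrome c) had 63.0 and *Htra2* 27.9. *Casp6* had the lowest RPKM, 1.97. Exons on the opposite strand overlapped 43.7% of those of *Htra2*, and *Cycs* was not checked for copies elsewhere in the genome. Of the inhibitor of apoptosis genes, *Birc3* (cIAP2) had 72.5 and *Birc2* (cIAP1) 62.7, *Birc5* (survivin) 5.61 and *Xiap*, the direct inhibitor of caspases, 1.88. The 5 genes of that list thus fell into a high pair and 3 lower genes.

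In the death receptor pathway, which reaches the BCL2 family through BID, 7 of 8 genes had reads, with a median RPKM of 24.8. *Casp8*, which cleaves BID, had 43.9, and *Cflar*, its inhibitor cFLIP, 35.0. *Tnfrsf1a*, a TNF receptor, had 34.3. *Tnfrsf10b*, the mouse TRAIL receptor, was listed at 0. For comparison, *Bid* had an RPKM of 16.1 in the same library.

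**Figure D4:**
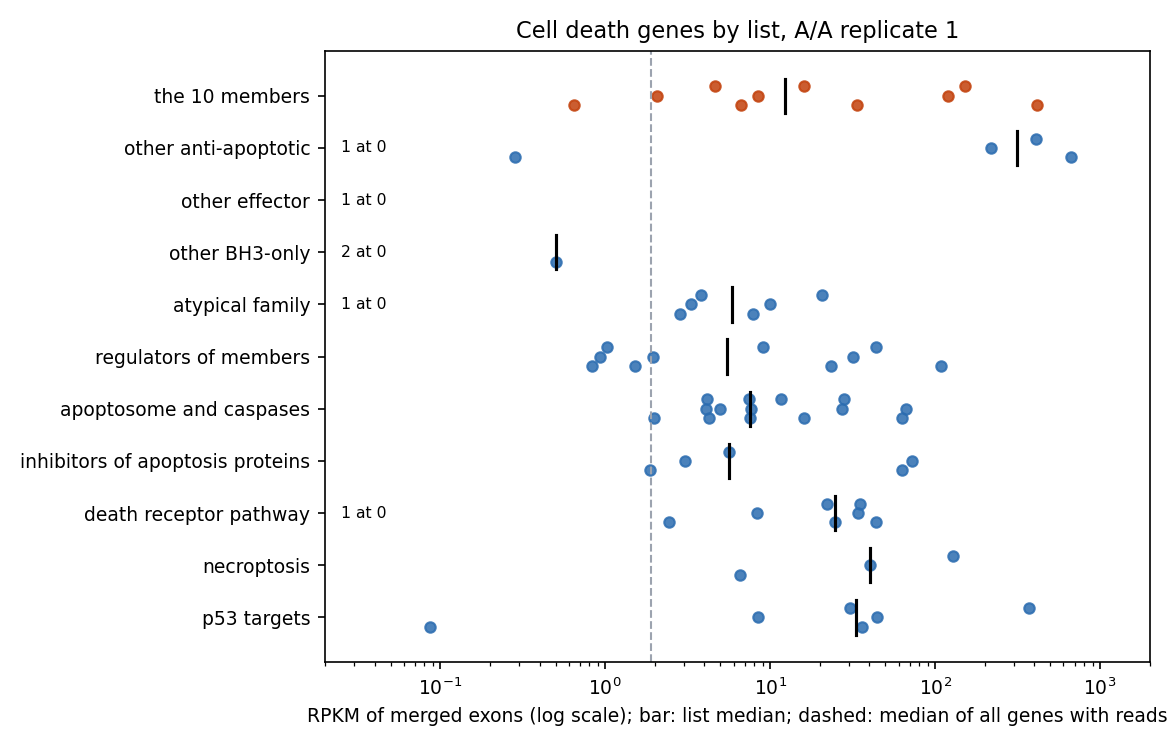
RPKM of merged exons (log axis) for each gene of the 10 members and of 10 lists of related genes in A/A replicate 1. Each point is a gene, the bars are list medians over genes with reads and the dashed line is the median of all genes with reads, 1.90; genes listed at 0 are given as counts at the left.

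Other cells in the sort could carry some of these reads, and in a bulk library fewer cells of a type and less RNA per cell cannot be told apart. The 7 conventional DC markers had 6 genes with reads, from 0.386 RPKM (*Xcr1*) to 579 (*Ccl22*), and *Cd209a* was listed at 0. All 5 macrophage markers had reads, from 0.397 (*Mertk*) to 237 (*Cd68*). The B cell list summed to 20.1 CPM with *Pax5* at 0, the neutrophil list to 24.3 CPM with *Ly6g* and *Elane* at 0, and the erythroid list to 2.83 CPM with *Hbb-bs* at 0. The 4 T cell markers were at 0. The summed levels were 1958 CPM for the conventional DC list and 360 CPM for the macrophage list, against 9767 CPM for the pDC list. The pDC list is the longest of them, with 11 genes, and the sums do not measure the share of each cell type. *Irf8* (2967 CPM), *Spib* (2289 CPM), *Bst2* (1657 CPM) and *Ly6c2* (1190 CPM) carried most of the pDC sum. *Ccl22* (1347 CPM) and *Fscn1* (428 CPM) carried most of the conventional DC sum, and *Cd68* (298 CPM) most of the macrophage sum. Of the remaining conventional DC markers, *Clec9a* had an RPKM of 22.5 and *Zbtb46* 12.4, above the median gene (1.90), and *Clec10a* 0.813, below it. The remaining macrophage markers, *C1qb* (23.9), *C1qa* (9.15) and *Adgre1* (7.74), were all above the median gene. The part of conventional DCs and macrophages in the levels of *Mcl1*, *Pmaip1* or the A1 genes was not tested.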

How the data were processed

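The authors sequenced mRNA libraries in a paired-end run of 150 bp and used DESeq2 for the genotypes. The submitters' processing notes name HISAT2, StringTie and the builds mm8 and mm10, without roles. The counting tool and strand setting are not given in the sources used here. If counts were derived from coverage by StringTie, a read here is an estimate. The authors deposited a normalized signal per gene, with GRCm38 coordinates and no stated unit. All values (100%) were whole multiples of the smallest, within 0.001 of a read, so reads were recovered by dividing by it. The length column was the genomic span and was not used. Of the gene IDs, 99.7% matched GENCODE M21, which gave exon lengths, and 95.2% of these had identical coordinates. Ratios carry exact (Clopper-Pearson) intervals. With 1 library no test was run. The planned genotype comparison was not possible. Python 3.11.15, numpy 2.4.6, scipy 1.17.1, pandas 2.3.3 and matplotlib 3.10.9 were used, and the intervals were tested on simulated data. Read recovery was simulated with the smallest count supplied. That the smallest deposited value is 1 read was therefore assumed and not tested. The members and lists were chosen with earlier results of these data known. All members were named, with all other core family genes and, of each further list, the 3 highest genes and the lowest. Some genes of these lists are not reported here. Ratios between members that are not neighbours in the order were chosen after the levels were seen.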

Additional observations from a re-analysis of the deposited data

How the results depend on the processing

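No paired analysis was possible because only 1 library was analysed, and no replicate could be left out. With the length of the longest coding transcript, the BH3-only, anti-apoptotic and effector shares of the summed level were 59.8%, 19.6% and 20.6%. With coding length they were 81.4%, 11.7% and 6.83%, and with CPM 63.8%, 26.9% and 9.33%. With the other family genes added they were 23.3%, 70.8% and 5.92%. Without *Pmaip1*, an alternative added with the data in view, the shares were 18.2%, 46.4% and 35.4%. With the other family genes added, and likewise with the data in view, they were 23.6%, 68.3% and 8.11% by the longest coding transcript, 57.1%, 38.1% and 4.79% by coding length and 42.0%, 51.8% and 6.13% by CPM. Settings that add or leave out genes move the shares by the genes summed; for the lengths, the shorter coding sequence of *Pmaip1* (309 bases) raises its level by construction. Of 45 pairs of members, 44 kept their order with the longest coding transcript, and 41 with coding length and with CPM. By CPM, 8 members were above percentile 50, and the count was 10 over all genes, 8 among genes with at least 10 reads and 9 by RPKM. A pseudocount of 0.1 lowered all 10 log2 levels, by construction. Of the 10 other lists, 8 had a median above that of all genes under each of the 3 settings tried. The exceptions were the other BH3-only genes and the other effector, which had no reads. With the longest coding transcript the margin was small for the inhibitor of apoptosis genes (5.72) and the regulators of the members (6.25), against 5.66 for all genes. Depth limited *Bak1* and *Bcl2*, whose 95% intervals ran from 4.25 to 5.81 and from 5.10 to 6.80 CPM.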

Other observations

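The necroptosis genes and the atypical family members were counted among the other lists above, and levels of their genes are given here. All 3 necroptosis genes had reads in A/A replicate 1. *Zbp1*, an interferon-induced nucleic acid sensor that binds RIPK3, had an RPKM of 129, *Mlkl*, the executioner that permeabilizes the plasma membrane, 40.6, and *Ripk3*, the kinase between them, 6.60. *Zbp1* was thus of the order of *Bax* (119), and *Ripk3* of the order of *Bcl2l1* (6.64).

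Of the 7 atypical family genes, 6 had reads and all 6 were above the median gene by RPKM of merged exons, with a median of 5.84. With the longest coding transcript *Bcl2l13* was below the median gene, at 3.73 against 5.66. *Becn1*, the autophagy gene whose product has a BH3 domain, had 20.7, although opposite-strand exons covered 43.9% of its exon bases. The mitophagy receptors *Bnip3l* and *Bnip3* had 10.0 and 7.89. *Bcl2l15* was listed at 0.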
